A study of Sus scrofa with 16 samples.

Results

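The genes described here encode the core of the exon junction complex, namely MAGOHB, MAGOH, RBM8A and EIF4A3, together with SNRPG of the spliceosome. They were taken as all probe sets (the array's units of measurement, each a group of probes to 1 transcript sequence) annotated with 1 of these 5 symbols alone. They came to 8 probe sets for 5 genes, out of 23999 probe sets and 6765 named genes measured. MAGOHB and SNRPG were picked because they passed the test for infarcted against sham hearts even when only bright probe sets were tested. Their difference between the groups is therefore given below as a description, with no p-value other than those that chose them. MAGOH, RBM8A and EIF4A3 were added by name, as partners of MAGOHB.

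Left ventricular RNA of 16 swine of the cross Yorkshire x Landrace, aged 2 to 3 months, was measured with 1 Affymetrix porcine array for each animal. Of these, 8 had a myocardial infarction (MI) and 8 a sham operation (Sham), and tissue was taken 3 weeks after surgery. Each group comprised 4 females and 4 neutered males, going by their labels. The sources used here give neither how the infarct was made nor which part of the ventricle was sampled. In such bulk tissue, fewer cells of a type and less RNA per cell cannot be told apart.

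The exon junction complex is left on mRNA by the spliceosome, just upstream of each junction between exons. EIF4A3, a DEAD-box RNA helicase, clamps the RNA, and a dimer of RBM8A (also called Y14) with a MAGO protein locks the clamp. The complex takes part in mRNA export and travels with the mRNA to the cytoplasm. There it takes part in translation and nonsense-mediated decay, the pathway that destroys mRNAs with premature stop codons. MAGOH and MAGOHB are nearly identical proteins from separate genes, and either can pair with RBM8A. Whether the probe sets of one also detect the other was not tested, as probe sequences were not used here. SNRPG is the Sm G protein, a member of the ring that surrounds the small nuclear RNAs of the spliceosome.

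Values are log2 signals as deposited by the authors, the log2 scale being judged from their range. Control probe sets with no target in the sample had single values up to 4.99, which is used here as the background level. Spike-in transcripts added before labelling split the arrays into set A (11 arrays) and set B (5 arrays: animals MI 7 and MI 8 with Sham 6, Sham 7 and Sham 8), a split absent from the labels. For actin, the excess of the 3' over the 5' control probe set was 2.64 ± 0.29 (SD) in set A and 1.42 ± 0.14 in set B, while it was 2.39 ± 0.59 in MI and 2.12 ± 0.68 in Sham animals. MI 7 is labelled female, but its signal for EIF1AY on chromosome Y was 9.51, within the 9.40 to 9.96 of the 8 animals labelled male and far above the 3.00 to 3.51 of the other 7 females. The tests of sex and of array set are given with and without MI 7, and the means by label sex and within set B include it. The tissue label was checked on 12 measured cardiomyocyte markers, whose mean log2 signal per animal lay between 13.7 and 13.9 in both groups, near the top of the array's range.

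MAGOHB had a clearly lower signal in the infarcted hearts. Among the 8 Sham animals the MAGOHB signal ran from 6.83 over a median of 7.31 to 7.40, and among the 8 MI animals from 5.51 over a median of 5.63 to 5.997. The groups did not overlap, and the lowest Sham animal (Sham 3) stood 0.83 above the highest MI animal (MI 5). The means were 7.24 ± 0.20 (SD, n = 8) in Sham and 5.67 ± 0.15 (n = 8) in MI animals, a difference of -1.57 (SE 0.09, 95% confidence interval -1.76 to -1.37), or a 2.97-fold lower signal. Over all 23999 probe sets this was the largest difference in either direction, and 0 others had a wider gap between the groups. All 16 arrays lay above background for MAGOHB (Entrez 100518306), the single probe set of this gene.

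**Figure D1:**
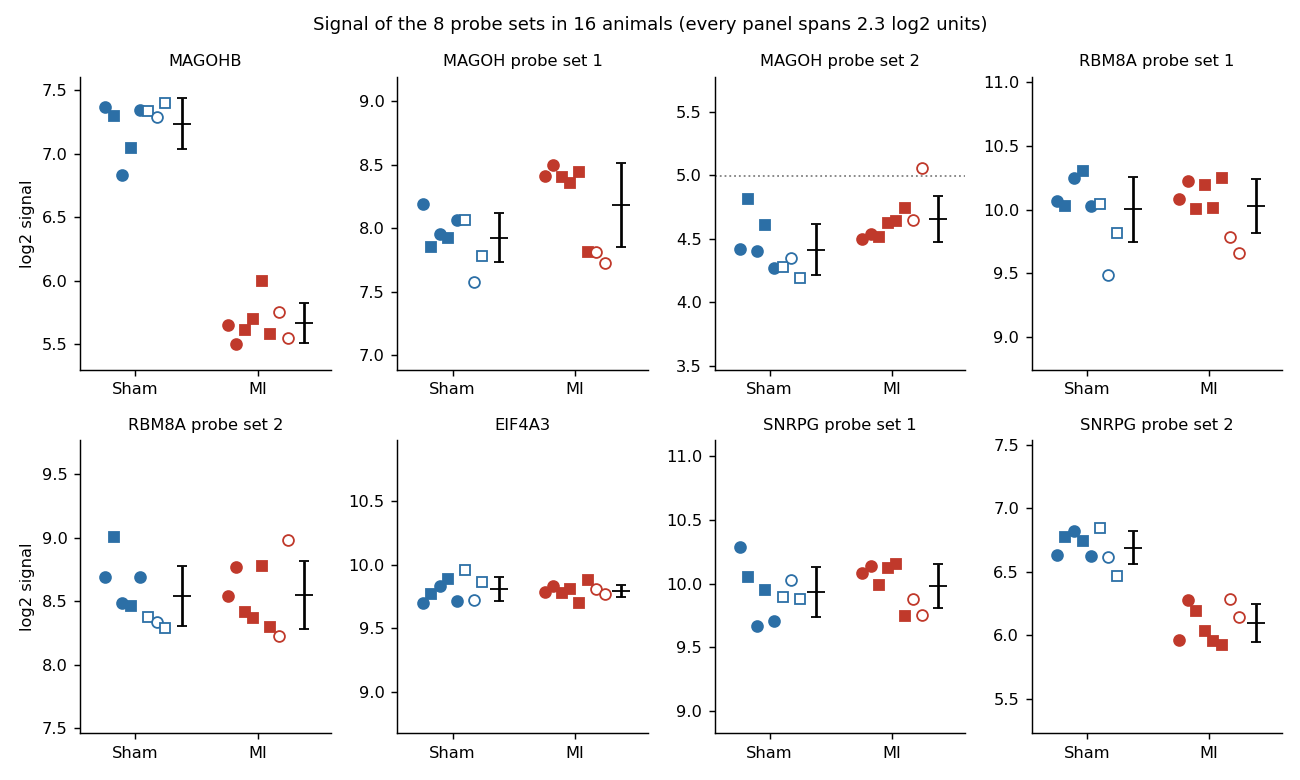
Log2 signal of the 8 probe sets in each of the 16 animals, Sham in blue and MI in red, with circles for animals labelled female, squares for those labelled male, filled symbols for spike-in set A and open symbols for set B; black bars give the mean ± SD (n = 8) and the dotted line the background level of 4.99. The groups separate for MAGOHB and for probe set 2 of SNRPG, and overlap in the other 6 panels.

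The lower signal of MAGOHB was present in animals of both label sexes and in both array sets. Females averaged 7.21 ± 0.25 in Sham and 5.61 ± 0.11 in MI animals (n = 4 each), and males 7.27 ± 0.16 and 5.72 ± 0.19 (n = 4 each). In set A the MAGOHB signal was 7.18 ± 0.23 in 5 Sham and 5.67 ± 0.17 in 6 MI animals. In set B it was 7.34 ± 0.06 in 3 Sham and 5.65 ± 0.14 in 2 MI animals. The fitted difference was -1.52 within set A, -1.69 within set B, and -1.57 with the set as a block and MI 7 left out. These values come from the contrast on which MAGOHB was picked and are no independent support for it.

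Of the 2 probe sets of SNRPG, the dim one separated the groups and the bright one did not. For probe set 2, Sham animals ran from 6.47 over a median of 6.69 to 6.84 and MI animals from 5.92 over 6.09 to 6.29. These ranges did not overlap, with a gap of 0.18, and 134 probe sets had a wider gap. Its means were 6.69 ± 0.13 and 6.10 ± 0.15 (n = 8 each), a difference of -0.59 (SE 0.07, 95% confidence interval -0.75 to -0.44) or 1.51-fold. It was -0.65 within set A, -0.42 within set B, -0.50 in females and -0.68 in males. For probe set 1, Sham animals ran from 9.66 over a median of 9.92 to 10.29 and MI animals from 9.74 over 10.04 to 10.15. The groups overlapped almost fully there, and the difference was 0.05 (SE 0.10, 95% confidence interval -0.16 to 0.26). The interval of the bright probe set therefore does not hold the difference seen with the dim one, so the array gives no single direction for SNRPG. The SNRPG gene overlaps its neighbour PCYOX1 by 648 bases in the annotation, and probe sequences were not at hand to place either probe set.

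Both picked probe sets were of middling brightness. By mean signal, MAGOHB ranked 11168 and probe set 2 of SNRPG 11399 among the 23999, so both lay just inside the 12000 brightest, the stricter of the limits used in picking them. Among those 12000, tested alone, 68 passed. There the adjusted p of SNRPG probe set 2 was 0.00277, and the member nearest outside the threshold was MAGOH probe set 1 with 0.508. These values chose the genes and test nothing.

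**Figure D2:**
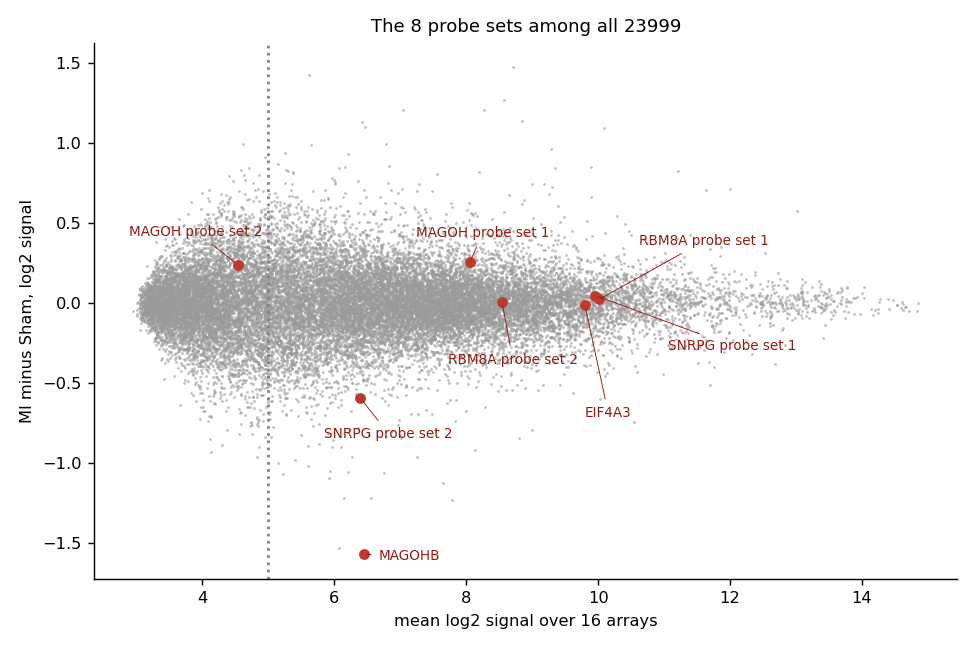
Difference between MI and Sham (log2 signal) against the mean log2 signal over 16 arrays for all 23999 probe sets (grey), with the 8 probe sets described here in red and the background level of 4.99 as a dotted line. MAGOHB lies at -1.57, below every other probe set, while 6 of the 8 lie between -0.01 and 0.26.

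The partners of MAGOHB in the complex gave no passing difference between MI and Sham animals. Of the 5 probe sets of MAGOH, RBM8A and EIF4A3, 0 reached an adjusted p under 0.05 by limma (1 had an unadjusted p under 0.05), where 10.5% of all 23999 probe sets passed, 5.39% higher and 5.14% lower in MI. The adjusted p-values of limma for these 5 lay between 0.140 and 0.984. With the array set as a block, 0 of the 5 passed by limma, where 12.9% of all probe sets did. All of the 5 except MAGOH probe set 2 lay among the 12000 brightest probe sets, of which only 68 passed when tested alone. A count of 0 of 5 therefore says little about these genes. Groups did not overlap for 2.96% of all probe sets (1.39% lower in MI) and for 2 of the 8 probe sets described here, both lower in MI and both picked on this contrast.

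MAGOH, the paralog of MAGOHB, differed in the opposite direction without passing. For probe set 1 (Entrez 100519318), Sham animals ran from 7.58 over a median of 7.94 to 8.19 and MI animals from 7.72 over 8.38 to 8.50. In words, 5 of the 8 MI animals stood above every Sham animal, and the other 3, MI 6, MI 7 and MI 8, lay among the Sham animals. The difference was 0.26 (SE 0.13, 95% confidence interval -0.03 to 0.54, limma adjusted p = 0.265). It was 0.38 within set A (adjusted p = 0.0721) and -0.04 within set B (0.956), so the 2 sets gave different signs, and that difference between sets was not tested. With the set as a block it was 0.21 (adjusted p = 0.248). Probe set 2 was dim, with only 1 array above background. Sham animals ran from 4.19 over a median of 4.38 to 4.81 there and MI animals from 4.50 over 4.63 to 5.05, so the groups overlapped. They differed by 0.24 (95% confidence interval 0.03 to 0.45, limma adjusted p = 0.14). Its difference was 0.04 within set A and 0.58 within set B, the reverse order to probe set 1.

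RBM8A, which binds both MAGO proteins, gave nearly equal group means in each probe set. With probe set 1 (Entrez 100156173), Sham animals ran from 9.48 over a median of 10.04 to 10.30 and MI animals from 9.66 over 10.05 to 10.25. The 2 lowest animals of either group belonged to set B. The difference was 0.03 (95% confidence interval -0.22 to 0.27, limma adjusted p = 0.929). Probe set 2 ran from 8.29 over a median of 8.47 to 9.001 in Sham and from 8.23 over 8.48 to 8.98 in MI animals, nearly the same range. It had means of 8.55 ± 0.27 in MI and 8.54 ± 0.24 in Sham animals (n = 8 each) and a difference of 0.01 (-0.26 to 0.27, adjusted p = 0.984).

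EIF4A3, the helicase of the complex, had the smallest spread of the 8 probe sets. In Sham animals the EIF4A3 signal (Entrez 100101926) ran from 9.70 over a median of 9.80 to 9.96, and in MI animals from 9.70 over 9.79 to 9.88. The MI range lay inside the Sham range. Its difference was -0.01 (SE 0.05, 95% confidence interval -0.12 to 0.09, limma adjusted p = 0.924), an interval far from the difference of MAGOHB.

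**Figure D3:**
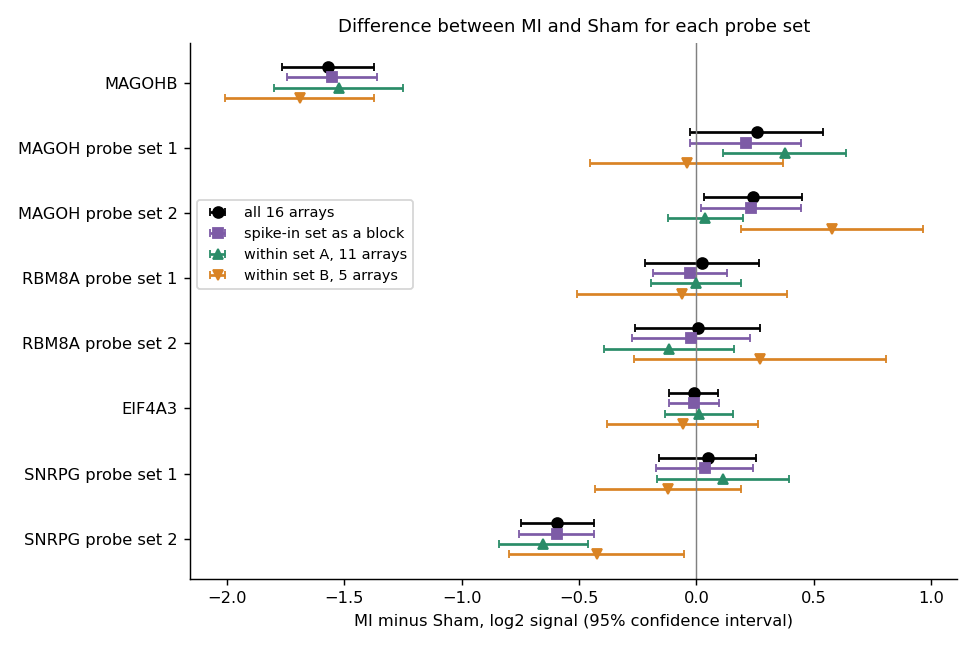
Difference between MI and Sham in log2 signal for each probe set, with 95% confidence intervals, from all 16 arrays (black), after blocking on the spike-in set (purple), within set A (green) and within set B (orange). MAGOHB lies between -1.69 and -1.52 in all 4 estimates and SNRPG probe set 2 between -0.65 and -0.42; MAGOH probe set 1 runs from -0.04 to 0.38.

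Sex and array set, which were not used to pick the genes, were tested on all 8 probe sets. For female against male, limma passed 0 of the 8 (0 also had an unadjusted p under 0.05), where 0.0583% of all probe sets passed. MAGOHB differed by -0.08 between females and males (95% confidence interval -0.28 to 0.11, adjusted p = 0.998), and by -0.11 with MI 7 left out and the set as a block. For the difference of the MI effect between females and males, limma passed 0 of the 8 (unadjusted p under 0.05 in 0), where 0.00% of all probe sets passed and 1363 had an unadjusted p under 0.05. For MAGOHB this interaction was -0.05 (95% confidence interval -0.44 to 0.34, adjusted p = 0.962), and for SNRPG probe set 2 it was 0.18 (-0.13 to 0.49, adjusted p = 0.817). With MI 7 left out and the set as a block these were -0.16 and 0.17.

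For set B against set A, with group and sex in the fit, 1 of the 8 probe sets passed by limma. Over all probe sets 17.6% passed, a larger share. RBM8A probe set 1 was different by -0.42 in set B (SE 0.09, adjusted p = 0.00487), and by -0.43 without MI 7 (0.00936). Its probe set 2 differed by -0.24 (adjusted p = 0.269), and by -0.16 without MI 7 (0.497). The signal of RBM8A probe set 1 averaged 10.13 ± 0.13 in 5 Sham and 10.13 ± 0.11 in 6 MI animals of set A. In set B it averaged 9.78 ± 0.28 in 3 Sham and 9.72 ± 0.08 in 2 MI animals. MAGOH probe set 1 differed by -0.37 between the sets (adjusted p = 0.0681), and by -0.34 without MI 7 (0.136). For MAGOHB the set difference was 0.13 (95% confidence interval -0.10 to 0.36, adjusted p = 0.461), and for SNRPG probe set 2 it was -0.02 (-0.21 to 0.17, adjusted p = 0.895). Without MI 7 these were 0.11 (0.599) and -0.06 (0.729).

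By RefSeq's annotation of Sscrofa11.1, a pig genome assembly, MAGOHB lies on chromosome 5 from 61425699 to 61434026, MAGOH on chromosome 6 from 158988172 to 158998987 and RBM8A on chromosome 4 from 99408422 to 99411964. EIF4A3 lies on chromosome 12 from 2285679 to 2311750 and SNRPG on chromosome 3 from 72198722 to 72208053. All 5 are protein-coding genes. Which exon or untranslated region each probe set covers was not analysed here.

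No measured gene around MAGOHB passed the test. Within 1000000 bases of MAGOHB, 11 of 58 annotated genes were measured, by 15 probe sets, and 0 passed by limma between MI and Sham animals (3 at an unadjusted p under 0.05), where 10.5% of all probe sets passed. A count of 0 of 15 says little beside that share. The differences of these 15 ran from -0.28 for KLRK1, a receptor of natural killer cells, to 0.64 for A2M, a plasma protease inhibitor (adjusted p = 0.646 and 0.337). The bright probe set of YBX3, a cold-shock domain protein that binds RNA and whose gene lies 64.4 kb away, differed by 0.10 (95% confidence interval -0.02 to 0.21, adjusted p = 0.308). LY49, 5.33 kb away, was below background in both groups at 3.36 ± 0.06 and 3.35 ± 0.03. Other measured genes there were ETV6, SL44-1, GABARAPL1, OLR1, CLEC1A, CD69 and CLEC2D, with differences between -0.14 and 0.32.

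Around SNRPG, 6 of 35 annotated genes were measured by 11 probe sets, and 0 passed by limma (2 with unadjusted p under 0.05), where 10.5% of all probe sets passed. A count of 0 of 11 says little beside that share. PCYOX1, an enzyme that breaks down prenylated cysteine and whose gene overlaps SNRPG, had 3 probe sets with differences of 0.29, 0.16 and 0.39 (adjusted p = 0.147, 0.656 and 0.0557), opposite in sign to the dim probe set of SNRPG. FAM136A, 1.93 kb away, differed by 0.16 (adjusted p = 0.311). The remaining 4, NAGK, TGFA, ANXA4 and GFPT1, had differences between -0.14 and 0.09.

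**Figure D4:**
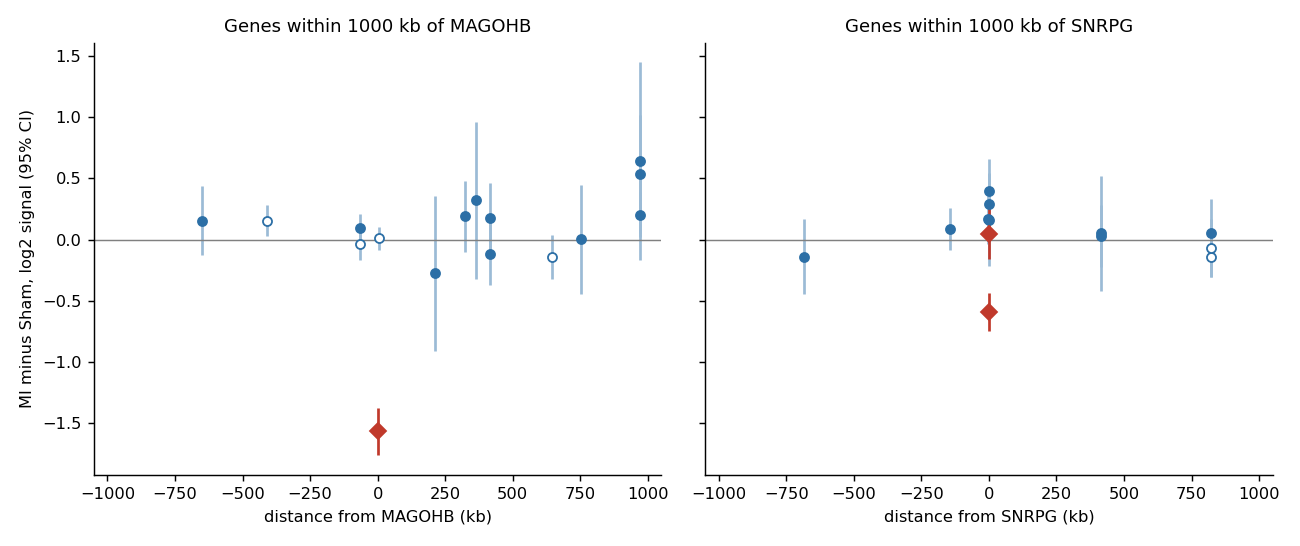
Difference between MI and Sham (log2 signal, with 95% confidence interval) of measured genes against their distance in kb from MAGOHB (left, 15 probe sets) and from SNRPG (right, 11 probe sets), with open circles for probe sets below background and red diamonds for MAGOHB and SNRPG themselves. MAGOHB at -1.57 stands apart from its neighbours, which lie between -0.28 and 0.64.

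Few genes of the wider machinery of splicing and mRNA handling passed. Of 146 measured genes on 8 lists of splicing and mRNA factors, each taken at its brightest probe set, 2 rose and 4 fell by limma (20 at an unadjusted p under 0.05). That is 4.11%, against 7.63% of all 6765 genes (4.12% higher and 3.50% lower). These shares do not compare like with like, because all 146 listed genes lay above background, against 5925 of the 6765. When bright probe sets were tested alone, with p adjusted among them only, 654 of the 16000 brightest and 68 of the 12000 brightest passed. These counts are not the share of bright probe sets that passed the test over all probe sets. The median difference of the 146 was -0.03 on the log2 scale and that of all genes 0.00. The lowest of the 146 differences was -0.36, far above that of MAGOHB. The count of 6 was not stable: it was 1 without MI 1, 2 without MI 2 or MI 4, and 3 without any 1 of MI 3, Sham 3, Sham 4, Sham 6 or Sham 7.

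Taken at the brightest probe set of each gene, factors that join or act on the exon junction complex gave no passing gene. Of all 6765 genes 7.63% passed, so counts of 0 on lists this short say little about these factors. Of 6 measured genes of its periphery and assembly 0 passed by limma (with an unadjusted p under 0.05 in 0), with a median difference of -0.09, and SRRM1, a splicing coactivator found with the complex, had the lowest p, at -0.21 (adjusted p = 0.36). Of 9 measured factors of nonsense-mediated decay and its partners 0 passed by limma (1), with a median of 0.04. Dimmer probe sets did pass for SMG9 (-0.59, adjusted p = 0.00271) and DCP1A (0.44, 0.00662), whose brightest ones differed by -0.04 and 0.07. In this list NCBP2, the small subunit of the nuclear cap-binding complex, differed by 0.21 (adjusted p = 0.145), by 0.36 within set A (0.0442) and by -0.10 within set B (0.818). Of 16 genes of mRNA export 0 passed by limma (4), and DDX19A, an export helicase, differed by 0.22 (adjusted p = 0.0844). With the array set as a block 1 of the 16 passed, POLDIP3, which differed by -0.29 (adjusted p = 0.131, and 0.0290 with the block).

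The list of Sm proteins, to which SNRPG belongs, and related LSm proteins also gave no passing gene at the brightest probe sets. Not all of these proteins share a ring with SNRPG. With 7.63% of all 6765 genes passing, a count of 0 on so short a list says little. Of 12 measured Sm and LSm proteins 0 passed by limma (1 with unadjusted p under 0.05), with a median of -0.03. SNRPB, the Sm B protein, was 8.35 ± 0.28 in MI and 8.64 ± 0.29 in Sham animals (n = 8 each), a difference of -0.29 (adjusted p = 0.131), and passed with the array set as a block (adjusted p = 0.0342) but not with MI 7 left out as well (0.0656). Of 11 genes that assemble the Sm ring 0 passed by limma (1), and SNUPN, the adaptor that carries assembled particles into the nucleus, differed by 0.15 (adjusted p = 0.186). Of the 2 dimmer probe sets of GEMIN5 in this list, 1 passed, lower in MI, while its brightest one differed by 0.05.

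Among 44 spliceosome genes, PPIE, a spliceosomal cyclophilin, rose by 0.27 (limma adjusted p = 0.0234, higher than the Sham mean in 7 of 8 MI animals). In the same list RBM17, a splicing factor, fell by 0.23 (adjusted p = 0.0238), and SNU13, a protein of small nuclear and nucleolar particles, fell by 0.16 (0.0475), both with 8 of 8 MI animals below the Sham mean. Among dimmer probe sets in this list, 1 of 3 for SNRNP40 and 1 of 2 for SF1 passed, both lower in MI. Among 40 SR and hnRNP regulators, HNRNPM, an RNA-binding regulator of splicing, fell from 9.30 ± 0.11 in Sham to 8.97 ± 0.08 in MI animals (n = 8 each). Its difference was -0.33 (SE 0.06, adjusted p = 0.00222), the lowest Sham value of 9.13 lying above the highest MI value of 9.07. SRSF1, an SR protein of both constitutive and regulated splicing, fell by 0.36 (adjusted p = 0.0426), but neither of the remaining 2 probe sets for SRSF1 passed. For RBM39 in the same list, 1 of 2 dimmer probe sets passed, lower in MI. Among 10 genes of the cap-binding complex eIF4F and its kin, EIF4E, which binds the mRNA cap, rose by 0.39 (adjusted p = 0.0287).

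Of the 6 genes that passed at their brightest probe set, HNRNPM alone passed without each of the 16 animals in turn (limma adjusted p up to 0.00658). PPIE did not pass without MI 1, MI 2 or MI 4 (up to 0.0516), nor RBM17 without MI 1, Sham 4 or Sham 5 (up to 0.0509). EIF4E passed without 8 of the 16 animals and not without MI 1 to 4, Sham 2, Sham 3, Sham 6 or Sham 7 (up to 0.0616). SRSF1 passed without 6 and not without MI 1 to 5, Sham 1, Sham 3, Sham 4, Sham 6 or Sham 7 (up to 0.0874), and SNU13 passed only without Sham 2 (up to 0.0924). All 6 passed with the array set as a block, but with MI 7 left out as well SNU13 (0.0784) and SRSF1 (0.0567) did not. Within set A, PPIE, RBM17, HNRNPM and EIF4E passed (adjusted p from 0.0142 to 0.0401), while SNU13 (0.293) and SRSF1 (0.105) did not. Over all probe sets, 2324 passed within set A. The 6 genes were chosen on a contrast that includes the set A arrays, so passing there is no independent support. Within set B 0 of the 6 passed by limma. Only 1 of all probe sets passed within set B, so that count says little about the 6 genes.

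**Figure D5:**
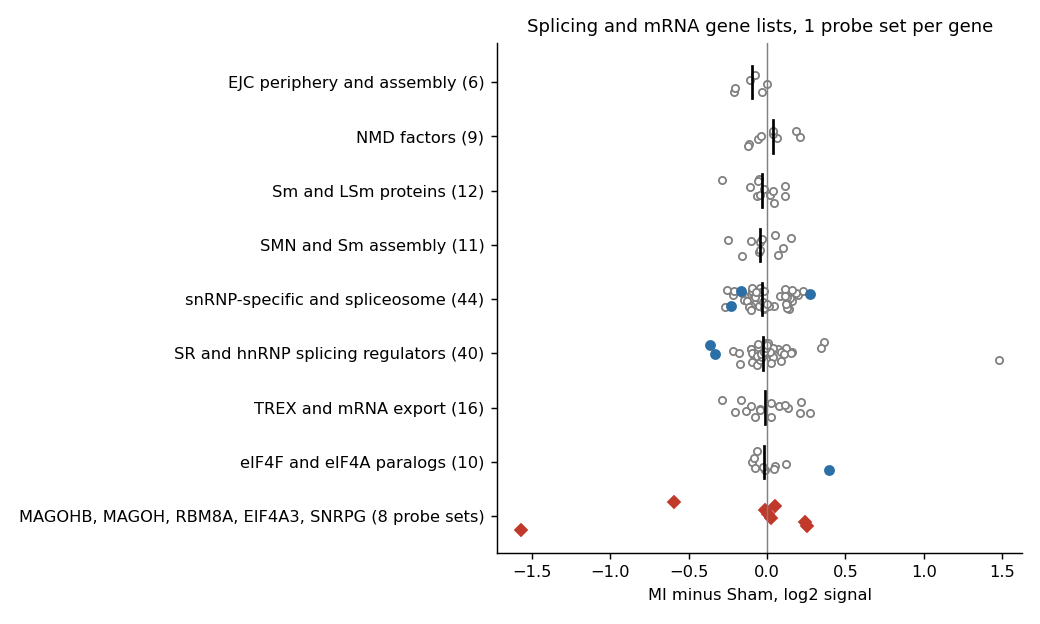
Difference between MI and Sham (log2 signal) of each measured gene on 8 lists, with the number measured in brackets; filled blue circles passed at an adjusted p under 0.05, open circles did not, and black bars mark the list median. The 8 probe sets of MAGOHB, MAGOH, RBM8A, EIF4A3 and SNRPG are red diamonds; MAGOHB at -1.57 lies below all 146 listed genes.

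Some markers of cell types other than heart muscle also differed between the groups. Of 68 measured markers on 11 lists, each at its brightest probe set, 11 rose and 2 fell in MI animals by limma, where 4.12% of all 6765 genes rose and 3.50% fell. The rises were 1 of 7 macrophage markers (CD14), 4 of 10 T and NK cell markers (CD3D, CD8B, CD247 and IL7R), 1 of 4 neutrophil markers (MMP9), 1 of 2 mast cell markers (MS4A2), 2 of 4 erythroid markers (HBM and AHSP) and 2 of 6 adipocyte markers (PPARG and ADIPOQ). The falls were CD4 of the T cells and RETN of the adipocyte list. Other probe sets existed for CD247 (3) and for CD14, MS4A2 and CD4 (1 each), and 0 of them passed. Of the other T and NK cell markers, CD3E (-0.26), KLRK1 (-0.28), CD8A (-0.10) and CD2 (-0.08) were lower in MI without passing. CD3G (0.13) was higher without passing. The other neutrophil markers, S100A8 (-0.21), S100A12 (-0.14) and S100A9 (-0.54), were lower in MI without passing, at mean signals below background. IL7R, CD4, ADIPOQ and the sole B cell marker, CD79B, had mean signals below background. The mean log2 signal of a list ran from 7.91 to 8.32 in MI and 7.80 to 8.41 in Sham animals for macrophages, and from 5.19 to 5.93 and 5.31 to 6.07 for T and NK cells. It ran from 6.41 to 7.82 and 6.26 to 6.78 for erythroid cells, from 6.35 to 6.74 and 6.04 to 6.42 for adipocytes, and from 7.31 to 8.47 and 6.62 to 8.04 for mast cells. For neutrophils it was 4.16 to 4.73 and 4.17 to 5.29, below background in every MI animal. These list means overlapped between the groups, and the part of these cell types in the difference of MAGOHB was not tested. Of 12 cardiomyocyte markers 0 passed by limma (0 unadjusted), of 8 fibroblast markers 0 (0), of 6 smooth muscle markers 0 (0) and of 8 endothelial markers 0 (1). Dimmer probe sets passed for COL1A2 of the fibroblast list (0.32, adjusted p = 0.0407), PDGFRB of the smooth muscle list (0.26, 0.0313) and KDR of the endothelial list (0.31, 0.0169).

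The genes whose pattern within groups was most like that of MAGOHB gave no passing difference between MI and Sham. Likeness was measured as Pearson's r over the 16 arrays, after taking out group, label sex and array set, and is a description. The 5 highest were ELAVL1, an RNA-binding protein that stabilises mRNAs (r = 0.86), LYPLA1 (0.85), CSTF2, a factor of mRNA 3' end cleavage (0.84), DR1 (0.84) and SLC35A3 (0.83). Their differences between MI and Sham lay between -0.20 and 0.37, and 0 of the 5 passed by limma, where 10.5% of all 23999 probe sets passed. So small a count says little beside that share. ELAVL1 entered with a dim probe set (mean 5.87, difference 0.37), while its brightest one differed by -0.02. For probe set 2 of SNRPG, the most like genes included RAB34 (r = 0.89), CES3 (0.86), XPC (0.82) and ROPN1L (0.81), given here for their r alone. Among the 8 probe sets themselves, RBM8A probe set 1 and EIF4A3 deviated together (r = 0.91), MAGOHB ran against EIF4A3 (r = -0.69), and the pairs of probe sets for 1 gene did not move together: r was -0.69 for MAGOH, -0.52 for RBM8A and -0.11 for SNRPG. All of these points share the same 16 arrays, and the r values carry no test.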

How the data were processed

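Total RNA of 16 left ventricles was hybridised as biotin-labelled cRNA to Affymetrix porcine arrays, per the labels' protocols. The authors deposited 1 value per probe set and array. Taken as log2 signals, because they span 2.87 to 14.9, the deposited values have the same median (6.24) on every array. How the authors normalized and summarized them is not given in the sources used here. Precision is limited by the number of animals.

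Tests covered 23999 probe sets, without the 124 controls. Of these, 10069 had 1 gene symbol in the platform annotation, 198 several and 13732 none. Genes were placed through RefSeq (Sscrofa11.1) by Entrez identifier, with 6700 of 6774 identifiers found. The fit used limma 3.58.1 (lmFit, eBayes; R 4.3.3), with 1 coefficient per cell of group and label sex (12 residual degrees of freedom), two-sided, and with Benjamini-Hochberg adjustment over all 23999 probe sets. An adjusted p under 0.05 passed. On simulated data for MI against Sham with 23999 probe sets, 100 were raised in MI by 0.5 and 100 by 1 on the log2 scale. The fit recovered 57 and 98 of these, with 4 false calls. The simulated noise was independent between probe sets and held no array sets, and far fewer probe sets changed than passed in the real data. These rates therefore need not hold for the real data.

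The genes, lists and tests were chosen with earlier results of these data known. The genes named were all probe sets of the 5 genes, the passing genes of each list (or the gene with the lowest p), measured genes within 1000000 bases of MAGOHB and SNRPG, and the 5 genes most like each, of which 1 is not reported here. Background came from 23 control probe sets. Alternatives covered covariates, normalization, filters on dim probe sets, an offset, variance models, array sets and single animals.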

Additional observations from a re-analysis of the deposited data

Results flagged for a closer look

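In the dim probe set 2 of MAGOH, the signal of MI 8 was 5.05 and that of the next MI animal 4.74, a gap of 0.56 of the range of the 8 MI animals, above Dixon's critical value of 0.526. MI 8 was the only array above background for this probe set and belongs to array set B. Of the 16 combinations of probe set and group that were checked, 1 stood out in this way, and chance alone gives about 1 in 20.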

How the results depend on the processing

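MAGOHB stayed lower in MI under all 30 alternatives, from -1.69 to -1.14, and from -1.63 to -1.54 over the 16 fits that leave out 1 animal each. SNRPG probe set 2 stayed lower too, from -0.65 to -0.42, and from -0.63 to -0.56 without single animals. Both were picked on this contrast in the same arrays, so their ranges are a description and no independent support. The values outside 1 SD of the reported ones were -1.14 and -0.43 with 32 added before the logarithm, which shrinks differences of dim probe sets, and -0.42 for SNRPG within set B (5 arrays). For MAGOH, RBM8A and EIF4A3, 0 alternatives gave a passing difference by limma, and the sign of these small differences changed in 7 of 30 alternatives for RBM8A probe set 1, in 11 for RBM8A probe set 2, in 4 for EIF4A3 and in 1 each for MAGOH probe set 1 and SNRPG probe set 1. The lower signal of RBM8A probe set 1 in set B passed in all 26 alternatives, and MAGOH probe set 1 also passed there in 5 of 26 and RBM8A probe set 2 in 1. For MI against Sham over all probe sets, the passing count (2527) fell to 654 among the 16000 brightest, 68 among the 12000 brightest, 993 among those above background and 1 within set B. It lay between 2045 and 2537 without single animals. The count over the splicing and mRNA lists (6) was 1 among the 16000 and among the 12000 brightest, 3 among those above background, 0 within set B by limma, 1 to 7 without single animals, 9 with array weights, and 9 with the array set as a block, where POLDIP3, PRPF4 and SNRPB joined the 6. The count for female against male (14) was 7 among the 12000 brightest, and that for set B against set A (4235) lay between 2774 (without Sham 7) and 4285 without single animals and reached 5584 with label sex left out of the fit. The cause of these shifts was not tested, beyond the smaller number of probe sets or arrays. With the animal number as a replicate block, 2395 probe sets passed and MAGOHB differed by -1.57. The calls of MAGOH, RBM8A and EIF4A3 and the list count did not change. The numbers are not known to pair animals: same-numbered animals deviated together (r over 0.1) in 4 of 8 pairs. A signal near background limits MAGOH probe set 2.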

Other observations

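A pair of probe sets of RNA-handling genes had differences nearly as large as that of MAGOHB but with a wide spread; they were chosen after their values were seen. HNRNPL, an RNA-binding regulator of splicing, had the highest difference of all probe sets, 1.48, with values from 7.17 to 10.58 in MI and from 5.60 to 10.44 in Sham animals (limma adjusted p = 0.198). The dim probe set of DDX39B, an RNA helicase of mRNA export, differed by 1.21, with values from 7.27 to 8.46 in MI and from 3.89 to 8.60 in Sham animals (adjusted p = 0.217), while its bright probe set differed by -0.21 (0.529). In both cases the groups overlapped over most of the MI range.

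The probe set with the second lowest difference, which has no gene name in the annotation used here, averaged 6.84 in Sham and 5.31 in MI animals, a difference of -1.53.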
